A study of Mus musculus with 6 samples.

Results

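The genes described here are 43 mouse genes known to be induced by interferon, taken as a list of symbols and found by Ensembl identifier among the 55487 genes of the liver RNA sequencing tables. They were grouped by role into 21 antiviral effectors, 3 genes of the ubiquitin-like modifier pathway, 3 RNA sensors, 4 transcription factors, 9 GTPases best known as interferon-gamma targets, and 3 genes of antigen processing. All 43 were matched, and 42 had enough reads to be tested; the exception was Oas3, an oligoadenylate synthetase with 4 to 20 reads per library.

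Poly(A) RNA was sequenced from frozen liver samples of 20 mg. They came from 6 male mice, all 8 weeks old, of which 3 were labelled WT (BALB_cJ) and 3 SCADD (BALB_cBYJ). SCADD stands for short-chain acyl-CoA dehydrogenase deficiency, a defect of the mitochondrial enzyme encoded by Acads that oxidises short fatty acyl chains, and BALB/cByJ is the inbred substrain that carries it. Both groups were kept on standard chow, and the labels name no infection and no interferon treatment in either. Each group is 1 substrain, so the effect of the Acads defect and that of other differences between the substrains cannot be told apart. The design text calls the 3 animals of a group biological replicates.

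Interferons are secreted signals that put cells into an antiviral state. Type I interferons act through a receptor that activates a complex containing STAT2 and IRF9, which binds the interferon-stimulated response element (ISRE) in promoters, while interferon-gamma acts mainly through the gamma-activated site (GAS). The genes they switch on include blockers of viral replication, sensors of viral RNA, GTPases that attack the vacuoles of intracellular parasites, and the machinery that loads peptides on MHC class I, and in liver both hepatocytes and resident macrophages respond.

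Promoter windows were taken from RefSeq on build GRCm38.p6, each from 250 bases before to 50 after a gene's start, and 33 of the 43 genes matched an entry. Both strands were searched for an ISRE core, written GAAANNGAAA, and a GAS core, written TTCNNNGAA. The ISRE core was present for 18 of the 33 genes (54.5%), against 3.99% of the 27025 genes in the table. The GAS core was present for 9 of 33 (27.3%), against 9.55% of all genes in the table. The search was chosen after expression values had been seen, the 2 cores can overlap and did so in Bst2, and a match is a run of letters, not a bound site.

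The stretches printed here are from Ifit1 and Ifi47, which were called different between the groups, and from 5 uncalled genes. Of these, Ifit3 and Ifit3b are neighbours of Ifit1, and Isg15 encodes the modifier on which Usp18 acts. Igtp and Irgm2 are GTPase genes on the same chromosome as Ifi47 but not next to it. ISRE and GAS matches are in capitals, and each stretch runs 5′ to 3′ on the gene's own strand, ending at the base before its RefSeq start. The first 3 are the neighbouring Ifit genes on chromosome 19, whose products bind viral RNA: Ifit1 (chr19:34640689-34640888, plus strand), Ifit3 (chr19:34583329-34583528, plus strand) and Ifit3b (chr19:34607757-34607956, plus strand). Each held 2 ISRE matches.
Ifit1: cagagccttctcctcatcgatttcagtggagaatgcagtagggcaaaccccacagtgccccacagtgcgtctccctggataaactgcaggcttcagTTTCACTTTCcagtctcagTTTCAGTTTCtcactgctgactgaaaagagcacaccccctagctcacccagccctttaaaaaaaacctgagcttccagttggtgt
Ifit3: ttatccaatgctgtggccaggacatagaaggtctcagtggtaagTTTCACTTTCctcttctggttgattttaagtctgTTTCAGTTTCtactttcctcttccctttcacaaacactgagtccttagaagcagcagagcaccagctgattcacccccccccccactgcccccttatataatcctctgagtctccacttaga
Ifit3b: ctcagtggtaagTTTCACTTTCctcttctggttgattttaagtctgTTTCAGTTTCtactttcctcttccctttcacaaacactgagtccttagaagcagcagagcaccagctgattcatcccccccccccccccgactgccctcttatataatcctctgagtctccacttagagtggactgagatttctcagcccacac

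Aligned without gaps, the Ifit3 and Ifit3b windows were identical at 201 of 268 positions (75.0%). A run of c differs in length between them, and past it an ungapped alignment is out of register. The share therefore understates how alike the windows are. The next stretch is from Isg15 (chr4:156200819-156200938, minus strand), whose product is the ubiquitin-like modifier itself. It held 3 overlapping ISRE matches.
Isg15: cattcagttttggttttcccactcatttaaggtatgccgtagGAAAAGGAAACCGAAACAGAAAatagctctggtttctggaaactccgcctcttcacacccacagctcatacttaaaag

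The 3 last stretches are from immunity-related GTPase genes of chromosome 11. Igtp (chr11:58199436-58199555, plus strand) and Irgm2 (chr11:58214857-58214976, plus strand) each carried 1 GAS match followed by 1 ISRE match. Ifi47 (chr11:49076437-49076586, plus strand), whose level differed most clearly between the groups in this gene class, held neither core in its window.
Igtp: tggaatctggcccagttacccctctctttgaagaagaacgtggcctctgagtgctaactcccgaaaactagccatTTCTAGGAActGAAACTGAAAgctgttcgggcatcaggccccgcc
Irgm2: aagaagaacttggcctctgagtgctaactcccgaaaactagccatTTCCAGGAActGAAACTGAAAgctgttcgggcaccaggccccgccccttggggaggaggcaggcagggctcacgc
Ifi47: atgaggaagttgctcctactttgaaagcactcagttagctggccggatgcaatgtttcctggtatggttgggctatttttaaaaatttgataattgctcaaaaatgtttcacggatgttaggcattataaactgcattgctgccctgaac

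Of the genes called different between the groups below, Ifit1 had the ISRE core, Ifi44 and Ifi47 did not, and Usp18 and Iigp1 had no entry in the promoter table. The 17 tested genes with the ISRE core had a median log2 fold change of -0.20 with 1 called, and the 15 tested genes without it had a median of -0.18 with 2 called. The spread was -0.59 to 0.50 with the core and -1.14 to 0.42 without it.

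Gene totals were 23991104 to 27148756 reads in WT and 16948986 to 23912744 in SCADD libraries. Unmapped reads made up 14.5% ± 1.58 (SD, n = 3) in WT and 29.7% ± 6.12 (SD, n = 3) in SCADD, with the largest share, 36.6%, in SCADD replicate 3, and the groups did not overlap (two-sided exact permutation test, p = 0.1, the smallest that 3 against 3 allows). Acads itself was at 166 to 196 CPM (counts scaled to library size, with edgeR's TMM factors) in WT and 96.96 to 104 in SCADD, a log2 change of -0.86 (SE 0.13, adjusted p = 0.00407). Across the 13498 tested genes, 947 (7.02%) passed an adjusted p of 0.05 by edgeR's quasi-likelihood test, 569 higher in SCADD (4.22%) and 378 lower (2.80%). Upper-quartile scaling gave 470 higher and 482 lower. Adjusted p-values below come from the TMM-scaled edgeR test over all tested genes unless another setting is named beside them.

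Between genes, levels were compared per length as TPM, in which every library sums to the same total. Iigp1, an immunity-related GTPase, stood far above all others with 174 ± 11.5 TPM in WT and 251 ± 33.6 in SCADD (SD, n = 3). Bst2 (tetherin), which holds budding virus particles at the cell surface, followed with 76.0 ± 2.78 TPM in WT and 86.3 ± 21.2 in SCADD. The gap between these genes was wider than the spread of either, and so was the gap from Bst2 down to Irgm1, at 35.5 ± 3.76 TPM in WT. Below it, Isg15 (28.8 ± 2.79), Igtp (28.5 ± 2.10) and Ifi35 (26.2 ± 2.18) did not differ beyond their spread in WT. Oligoadenylate synthetase genes and their relatives made up most of the bottom of the order, where Oas3 had the lowest mean, 0.0733 TPM in WT and 0.103 in SCADD, and Oas2 had 0.213 and 0.287.

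Iigp1 alone made up 29.2% to 29.7% of the summed TPM of the 43 genes in WT libraries and 36.4% to 46.1% in SCADD libraries. The sum with Iigp1 was 564 to 629 TPM in WT and 466 to 712 TPM in SCADD. Without Iigp1 it was 397 to 443 TPM in WT and 252 to 453 TPM in SCADD. The groups overlapped both with and without it. The level of Gbp6, which has close copies in the guanylate-binding protein cluster, depended on the counting: 2.89 TPM in WT from RSEM, which divides reads shared between copies, and 0.722 from STAR counts over the same effective length.

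**Figure D1:**
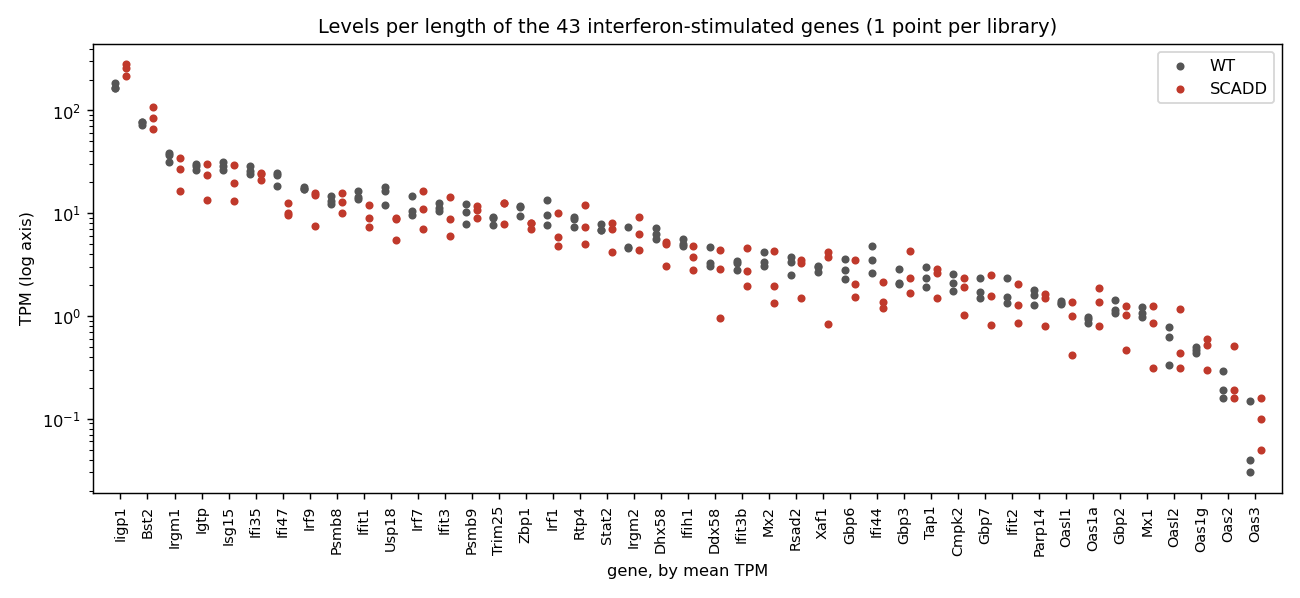
Level per length of each of the 43 genes as TPM on a log axis, with 1 point per library and genes ordered by mean TPM. Iigp1 and Bst2 stand above the rest in both groups, and Oas3 is lowest.

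Interferon-stimulated genes did not move as 1 block between SCADD and WT livers. Of the 42 tested, 4 fell in SCADD: Ifi44 (2.20-fold lower), Ifi47 (1.998-fold), Usp18 (1.93-fold) and Ifit1 (1.502-fold). The most abundant, Iigp1, rose 1.52-fold. The other 37 did not pass the test. The 5 called genes were 11.9% of those tested, beside 7.02% of all tested genes, and the 4 lower ones 9.52%, beside 2.80%. The log2 fold change was negative for 33 of 42 genes, with a median of -0.20, against 50.1% of all tested genes and a median of -0.00. An unadjusted p under 0.05 was reached by 12 of the 42, beside 3058 of all 13498 tested genes.

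WT and SCADD values were fully separate in 12 of the 42 genes (28.6%), close to the 28.0% of all tested genes. In this count 8 genes were lower in SCADD in every library and 4 were higher, where all genes split into 1771 lower (13.1%) and 2006 higher (14.9%). Besides the called genes, the 8 included Mx1, Ifih1, Irf9 and Irgm1, and the 4 included Trim25, Bst2 and Oas1a. Because the tissue was sequenced in bulk, fewer cells that express a gene and less of its RNA per cell cannot be told apart.

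**Figure D2:**
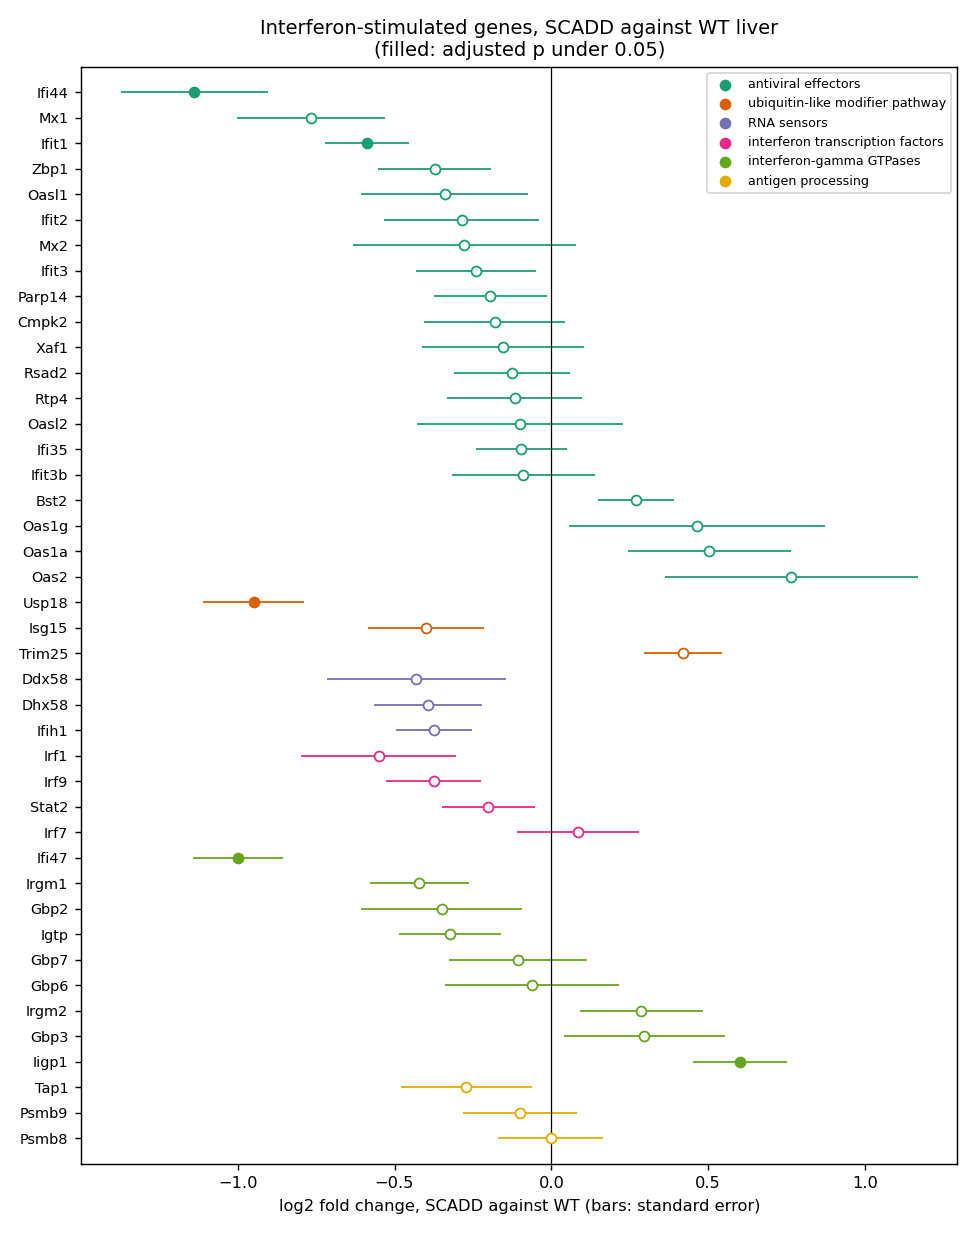
Log2 fold change of the 42 tested genes, SCADD against WT, by class, with bars of 1 standard error, and filled points for genes with an adjusted p under 0.05. The filled points are Ifi44, Ifit1, Usp18 and Ifi47 to the left of 0 and Iigp1 to the right; 33 of 42 points lie left of 0.

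Divided by class, the type I signature together with the transcription factors had 3 of 30 tested genes lower and none higher. The median log2 fold change of this set was -0.22. It includes Irf1, which is induced strongly by interferon-gamma. The GTPases and antigen processing genes had 1 of 12 lower, 1 of 12 higher, and a median of -0.10. The difference between these medians was not tested. Other settings were read for the 9 GTPases without the antigen processing genes, and their order against the type I signature was not stable. The median of the 9 GTPases was -0.25 with RSEM expected counts, -0.374 without SCADD replicate 2 and -0.13 without SCADD replicate 3. There the type I signature had -0.21, -0.365 and -0.09 and so lay nearer to 0. In the main setting and all other alternatives the GTPase median was the one nearer to 0. Many of these genes respond to both kinds of interferon.

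Among the antiviral effectors, 2 of 20 tested genes fell, Ifi44 and Ifit1, and the median log2 fold change was -0.17. Ifi44 (ENSMUSG00000028037, chromosome 3, 151730922 to 151749960, GRCm38) encodes an interferon-induced protein of the cytoplasm. It was at 12.9, 10.2 and 7.73 CPM in WT replicates 1, 2 and 3 and at 3.51, 5.76 and 4.78 in SCADD replicates 1, 2 and 3. Every SCADD library was below every WT library, with the widest spread inside WT, and the log2 fold change was -1.14 (SE 0.23, adjusted p = 0.0158). The call was lost when WT replicate 1 or 2 or SCADD replicate 1 was left out, where the adjusted p reached 0.0502 to 0.067.

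Ifit1 (ENSMUSG00000034459, chromosome 19, 34640871 to 34650009) encodes a protein that binds viral RNA lacking the host's cap methylation. It was at 43.5, 39.8 and 41.9 CPM in WT and at 24.6, 32.0 and 26.7 in SCADD. The WT libraries lay close together and all above the SCADD libraries, of which replicate 2 was nearest to them. The log2 fold change was -0.59 (SE 0.13, adjusted p = 0.0261), and the call was lost without any 1 of the WT libraries or without SCADD replicate 1 (adjusted p 0.0741 to 0.126).

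The other Ifit genes beside it on chromosome 19 were not called. Ifit3 was at 15.7, 14.2 and 14.9 CPM in WT and at 10.8, 16.9 and 10.2 in SCADD. Its SCADD replicate 2 lay above all WT libraries while the other SCADD libraries lay below them, and the log2 fold change was -0.24 (SE 0.19, adjusted p = 0.507). Ifit3b had the same order of SCADD libraries, 4.08, 6.37 and 3.72 CPM, with -0.09 (SE 0.23, adjusted p = 0.863), and Ifit2 had -0.29 (SE 0.25, adjusted p = 0.544). The ratio of Ifit3 to Ifit3b, as a log2 ratio of CPM, was 1.58 ± 0.15 in WT and 1.42 ± 0.02 in SCADD (SD, n = 3), with overlapping groups (two-sided exact permutation test, p = 0.2). The ratio of Ifit1 to Ifit3, compared after the values had been seen, was 1.48 ± 0.01 in WT and 1.17 ± 0.24 in SCADD on the same scale, without overlap (exact permutation p = 0.1, the smallest possible). Reads shared by Ifit3 and its close copy Ifit3b make their separate values uncertain.

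Bst2, the most abundant effector, was at 50.2, 53.8 and 53.9 CPM in WT and at 60.0, 68.3 and 62.0 in SCADD. The groups did not overlap, but the log2 change of 0.27 (SE 0.12) did not pass (adjusted p = 0.218). Mx1, a gene of the dynamin-like GTPase family, was at 2.39, 3.28 and 3.08 CPM in WT and at 1.88, 1.84 and 1.36 in SCADD. Whether these mice make a working Mx1 protein was not measured. Mx1 RNA was lower in all SCADD libraries, with -0.77 (SE 0.24, adjusted p = 0.0805). Its neighbour Mx2 had -0.28 (SE 0.36, adjusted p = 0.704). The 9.11 CPM of Mx2 in SCADD replicate 2 exceeded every WT library (5.32 to 7.40), while the other SCADD libraries had 3.59 and 3.41. The log2 ratio of Mx1 to Mx2 was -1.16 ± 0.10 in WT and -1.52 ± 0.71 in SCADD (exact permutation p = 0.6).

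The oligoadenylate synthetases, which make the second messenger that activates RNase L, were scarce and not called. Oas1a, Oas1g and Oas2 had positive log2 fold changes of 0.50 (SE 0.26), 0.46 (SE 0.41) and 0.77 (SE 0.40), with adjusted p of 0.286, 0.551 and 0.296. The highest Oas2 value, 1.65 CPM in SCADD replicate 2, stood against 0.437 to 0.760 in WT. The log2 ratio of Oas1a to Oas1g was 1.43 ± 0.45 in WT and 1.46 ± 0.55 in SCADD (exact permutation p = 1). The synthetase-like genes Oasl1 and Oasl2 had -0.34 and -0.10 (adjusted p = 0.497 and 0.901).

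The remaining effectors had log2 fold changes from -0.37 to -0.10. They were Zbp1, a sensor of Z-form nucleic acid (-0.37, adjusted p = 0.251), Rsad2 or viperin (-0.13, adjusted p = 0.741), its neighbour Cmpk2, a mitochondrial nucleotide kinase (-0.18, adjusted p = 0.691), the ADP-ribosyltransferase gene Parp14 (-0.19, adjusted p = 0.581), Xaf1 (-0.15, adjusted p = 0.784), Rtp4 (-0.12, adjusted p = 0.804) and Ifi35 (-0.10, adjusted p = 0.754). In each of these 7 genes the groups overlapped. The gene models of Rtp4 and Parp14 overlap unnamed gene models on the same strand, which leaves their counts uncertain.

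In the ubiquitin-like modifier pathway, Usp18 fell and the other members did not pass the test. USP18 removes ISG15 from proteins and also blocks the type I receptor, which makes it a brake on the response. Usp18 (ENSMUSG00000030107, chromosome 6, 121245906 to 121270917) was at 28.7, 27.6 and 21.2 CPM in WT and at 14.4, 14.3 and 11.3 in SCADD. All SCADD libraries were well below the lowest WT library, with a log2 change of -0.95 (SE 0.16, adjusted p = 0.00668). The call held in every alternative run, with adjusted p from 6.76e-07 to 0.0404.

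Isg15 was at 16.8, 14.995 and 16.7 CPM in WT and at 10.97, 16.0 and 9.68 in SCADD. SCADD replicate 2 lay among the WT values and the other SCADD libraries lay below them. The log2 fold change was -0.40 (SE 0.18, adjusted p = 0.229), and without SCADD replicate 2 it was -0.65 with an adjusted p of 0.0291. The log2 ratio of Usp18 to Isg15, chosen after the values were seen, was 0.67 ± 0.28 in WT and 0.15 ± 0.28 in SCADD (exact permutation p = 0.2). Trim25, an E3 ligase that activates the RNA sensor RIG-I and attaches ISG15, was at 49.9, 51.9 and 47.6 CPM in WT and at 71.3, 67.5 and 60.9 in SCADD. It was higher in all SCADD libraries, with 0.42 (SE 0.12, adjusted p = 0.0677), and passed with DESeq2 (adjusted p = 0.0486) and without SCADD replicate 3 (adjusted p = 0.0233).

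**Figure D3:**
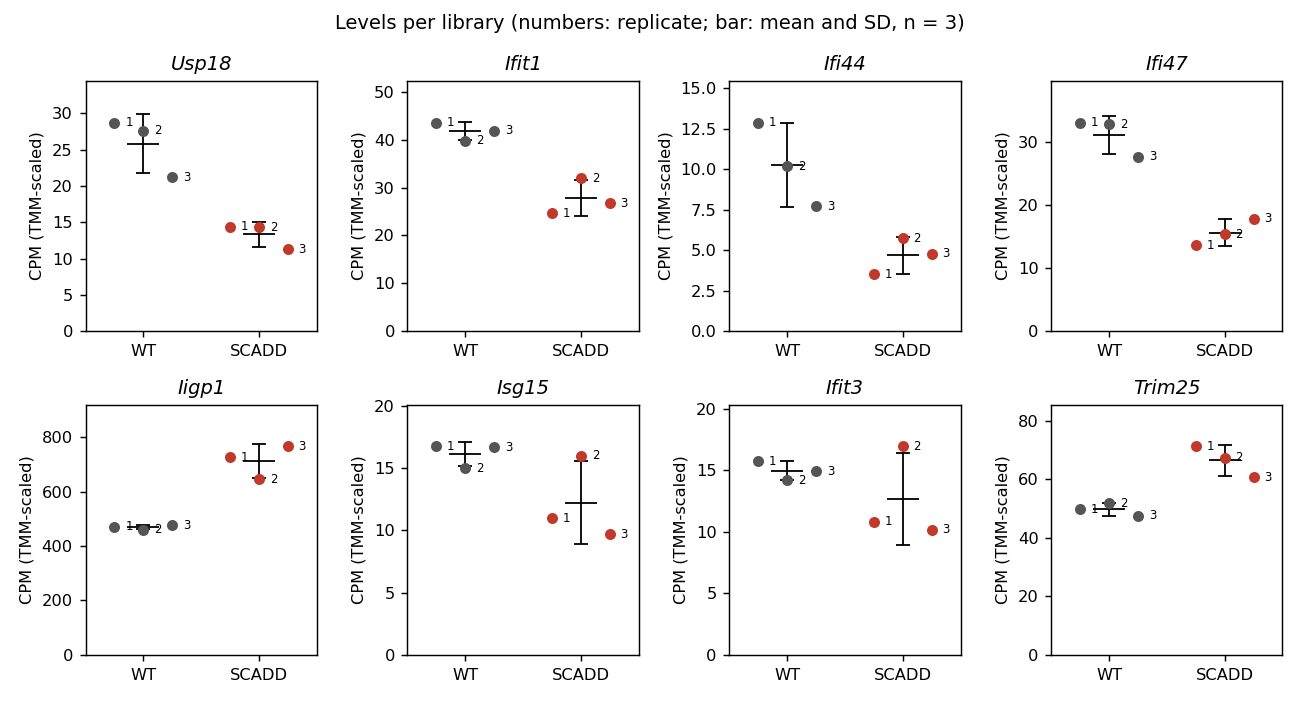
CPM of 8 of the genes in each library, numbered by replicate, with the mean and SD of each group (n = 3). Usp18, Ifit1, Ifi44, Ifi47, Iigp1 and Trim25 show no overlap between the groups, whereas SCADD replicate 2 reaches the WT values of Isg15 and Ifit3.

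The 3 cytoplasmic RNA sensors had similar negative log2 fold changes, and none was called (median -0.39). Ifih1 encodes MDA5, a sensor of long double-stranded RNA, and was at 24.2, 22.9 and 23.5 CPM in WT and at 17.3, 19.3 and 17.9 in SCADD. Both groups were tight and separate, and the log2 change of -0.37 (SE 0.12) had an adjusted p of 0.0918. Dhx58, which encodes the regulatory sensor LGP2 and had the highest TPM of the class, was at 15.3, 11.8 and 12.8 CPM in WT and at 12.2, 9.58 and 8.56 in SCADD, with overlapping groups (-0.39, SE 0.17, adjusted p = 0.201). Ddx58 (RIG-I) had -0.43 (SE 0.28, adjusted p = 0.421), with its lowest value, 4.71 CPM, in SCADD replicate 3.

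Of the 4 transcription factors none was called, and their median log2 fold change was -0.29. Irf9, the DNA-binding partner of STAT2 and the one with the highest TPM, was at 36.6, 38.8 and 41.8 CPM in WT and at 32.6, 33.8 and 23.9 in SCADD. The groups were separate, with -0.38 (SE 0.15, adjusted p = 0.169), and reads of Irf9 are uncertain where its gene model overlaps Rnf31 on the same strand. Irf1, which is induced strongly by interferon-gamma, was at 18.2, 16.5 and 28.3 CPM in WT and at 10.9, 18.9 and 13.2 in SCADD. WT replicate 3 stood apart and the groups overlapped (-0.55, SE 0.25, adjusted p = 0.221). Irf1 passed as lower with no filter (adjusted p = 0.0156). Stat2 had -0.20 (adjusted p = 0.469) and Irf7, the amplifier of type I interferon production, 0.09 (adjusted p = 0.843).

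Among the 9 GTPases linked to interferon-gamma, Ifi47 fell, Iigp1 rose and the median log2 fold change was -0.11. That median ran from -0.37 without SCADD replicate 2 to -0.03 without WT replicate 1, and was -0.23 without WT replicate 3 and -0.05 without SCADD replicate 1. Ifi47 (ENSMUSG00000078920, chromosome 11, 49076587 to 49096974) encodes the immunity-related GTPase IRGD. It was at 33.1, 32.8 and 27.7 CPM in WT and at 13.7, 15.4 and 17.9 in SCADD. The highest SCADD value was well below the lowest WT value, and the log2 fold change was -0.999 (SE 0.14, adjusted p = 0.00283), the smallest adjusted p of the 42 genes. The call held in every alternative run (adjusted p 7.23e-08 to 0.0208). The gene model overlaps Olfr56 on the same strand, so reads in shared exons are uncertain.

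Iigp1 (ENSMUSG00000054072, chromosome 18) encodes IRGA6, a GTPase that coats the vacuole of Toxoplasma. It was at 471, 460.2 and 476 CPM in WT and at 726, 645 and 766 in SCADD. The WT libraries were nearly equal and all SCADD libraries lay above them, with a log2 change of 0.60 (SE 0.15, adjusted p = 0.0371). The call was lost with upper-quartile scaling (adjusted p = 0.0518), without any 1 of the WT libraries and without SCADD replicate 1 (adjusted p 0.106 to 0.162). The log2 ratio of Iigp1 to Ifi47, a pair chosen after the values were seen, was 3.92 ± 0.16 in WT and 5.51 ± 0.19 in SCADD (SD, n = 3; exact permutation p = 0.1, the smallest possible).

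The other GTPases were not called. Irgm1, a regulator of this GTPase family and of autophagy, was at 66.9, 77.3 and 63.4 CPM in WT and at 50.9, 61.6 and 42.4 in SCADD. The groups were separate by a narrow margin, with -0.42 (SE 0.16, adjusted p = 0.14). Igtp had -0.32 (SE 0.16, adjusted p = 0.274) and Irgm2 0.29 (SE 0.20, adjusted p = 0.433), and since the gene models of Igtp and Irgm2 overlap on the same strand, their opposite signs are uncertain. The guanylate-binding protein genes Gbp2, Gbp3, Gbp6 and Gbp7, whose products attack the membranes of intracellular pathogens, had -0.35, 0.30, -0.06 and -0.11, with adjusted p of 0.471 to 0.933.

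None of the 3 antigen processing genes, which lie side by side on chromosome 17 in the MHC, was called, and their median log2 fold change was -0.10. Psmb8 and Psmb9 encode catalytic subunits of the immunoproteasome. Psmb8, the most abundant per length, was at 12.1, 10.8 and 15.4 CPM in WT and at 11.2, 14.2 and 13.0 in SCADD, with -0.00 (SE 0.17, adjusted p = 0.997). An approximate 95% interval of its fold, from the SE under a normal approximation, ran from 0.796 to 1.25. With 3 libraries per group such an interval is too narrow. Psmb9 was at 12.1, 10.1 and 15.02 CPM in WT and at 9.83, 11.5 and 13.6 in SCADD (-0.10, SE 0.18, adjusted p = 0.802). Tap1, a subunit of the peptide transporter, was at 8.83, 5.77 and 6.61 CPM in WT and at 6.12, 6.75 and 4.65 in SCADD (-0.27, SE 0.21, adjusted p = 0.492). For all 3 the groups overlapped.

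The SCADD libraries differed among themselves in these genes more than the WT libraries did. SCADD replicate 2 was the highest of its group for 30 of the 42 genes, against 37.6% of all tested genes, and SCADD replicate 3 the lowest for 26 of 42, against 41.0%. In WT, replicate 1 was the highest for 23 of 42, against 36.2% of all genes. The median coefficient of variation of CPM was 13.7% in WT and 22.4% in SCADD for the 42 genes, and 12.6% and 16.8% for all tested genes. The largest single value was that of Mx2 in SCADD, 60.3%.

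The size of the shift depended on which library was left out. Without SCADD replicate 2 the median log2 fold change of the 42 genes was -0.37 and 7 genes were called lower, the 3 added ones being Isg15, Mx2 and Irgm1, where 2.70% of all tested genes were. Without SCADD replicate 3 the median was -0.12, with 4 lower and 2 higher, where 4.93% and 6.58% of all tested genes were. SCADD replicate 3 also had the lowest gene total and the largest unmapped share, and the part of these in the gene values was not tested.

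**Figure D4:**
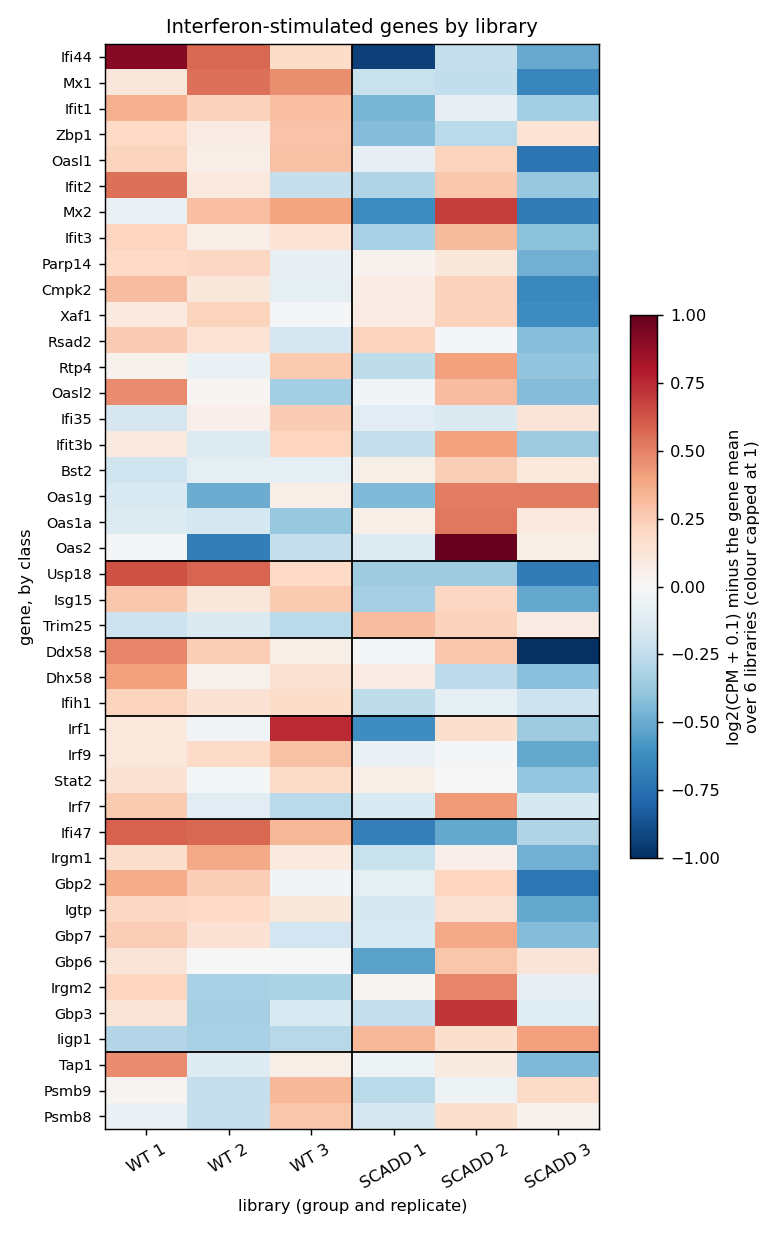
Level of the 42 tested genes in each library as log2(CPM + 0.1) minus the gene's mean over the 6 libraries, with colours capped at 1 and black lines between classes. The SCADD replicate 2 column holds higher values than its neighbours for 30 of 42 genes, and Usp18, Ifi44 and Ifi47 are lower in all 3 SCADD columns.

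Upstream of these genes, interferon transcripts were at or near 0. Of 10 interferon genes looked up, 7 had no read in any library. Ifnb1 had 1 read, in WT replicate 3, Ifng had 1 read in WT replicate 3 and 1 in SCADD replicate 2, and Ifnk had 0 to 17 reads per library. None could be tested, and interferon made outside the liver is not measured here.

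Of the receptor subunits, 5 of 6 were tested and none was called. Ifnar1 and Ifnar2, which form the type I receptor, had -0.18 (adjusted p = 0.519) and 0.09 (adjusted p = 0.772). Ifngr1, the ligand-binding chain for interferon-gamma, was at 15.4, 17.5 and 10.7 CPM in WT and at 9.67, 8.73 and 9.06 in SCADD. It was lower in every SCADD library, with -0.66 (SE 0.19, adjusted p = 0.0577), and passed with DESeq2 (adjusted p = 0.0347), upper-quartile scaling (0.0441), no filter (0.0045) and without WT replicate 3 (0.0242). Its partner Ifngr2 had -0.27 (adjusted p = 0.362), Il10rb of the interferon-lambda receptor 0.26 (adjusted p = 0.463), and Ifnlr1 had at most 2 reads.

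In the whole list of 95 other interferon pathway genes, 76 were tested and 3 were called (3.95%), 2 higher and 1 lower, beside 7.02% of all tested genes, and the median log2 fold change was -0.05. Trim21, an antibody receptor and E3 ligase of the cytosol, was at 10.3, 11.5 and 11.3 CPM in WT and fell to 5.43, 8.26 and 5.89 in SCADD (a log2 change of -0.76, SE 0.18, adjusted p = 0.0324). Psme1, a subunit of the proteasome activator PA28, rose from 27.7, 26.9 and 28.6 CPM to 42.8, 47.6 and 38.2 (0.63, SE 0.13, adjusted p = 0.0145). No SCADD library of either gene lay within the WT values. Ptpn11, the phosphatase SHP2, rose from 36.5, 34.5 and 32.6 CPM to 50.6, 52.8 and 46.7 (0.53, SE 0.12, adjusted p = 0.0248), also without overlap. Each of the 3 lost its call without any 1 of the WT libraries or SCADD replicate 1, and Ptpn11 also without SCADD replicate 2, with adjusted p up to 0.133, 0.0794 and 0.116. No call was made among the 5 other interferon regulatory factors and 11 genes upstream in nucleic acid sensing that were tested. In these lists Ikbke, a kinase that activates interferon regulatory factors, was at 7.27, 7.87 and 10.1 CPM in WT and at 4.77, 6.09 and 5.02 in SCADD, without overlap (-0.67, SE 0.19, adjusted p = 0.056). It passed with upper-quartile scaling, no filter, DESeq2 and without SCADD replicate 2 (lowest adjusted p 0.0163). Irf3, which switches on type I interferon genes, was at 48.0, 49.8 and 53.6 CPM in WT and at 41.5, 36.3 and 33.0 in SCADD, also without overlap (-0.45, SE 0.13, adjusted p = 0.0655), and passed with upper-quartile scaling (0.0443). Of the 7 tested genes listed as inhibitors of interferon signalling 6 had positive values, with a median of 0.20 and Ptpn11 as the 1 called. The negative value was that of Isg20 (-0.25, adjusted p = 0.574), whose place in this list is loose. Usp18, described above as a brake on the response, is not in this list and fell (-0.95, adjusted p = 0.00668). The 24 other type I stimulated genes had 17 negative values and a median of -0.19, and the 19 tested other interferon-gamma stimulated genes had 8 negative values and a median of 0.06.

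Markers of the cells in the tissue were read beside these values. Hepatocyte markers were abundant in all libraries and none of 6 was called. The groups did not overlap in 3 of the 6, beside 28.0% of all tested genes. Fgb (-0.59, adjusted p = 0.0868) and Serpina1c (-0.43, adjusted p = 0.185) were lower in SCADD, and Cyp2e1 (0.39, adjusted p = 0.242) was higher. Fgb passed with DESeq2 (adjusted p = 0.00356). Of 10 Kupffer cell and macrophage markers, all were tested and none was called, with summed levels of 283 to 369 CPM in WT and 226 to 370.4 in SCADD. Without SCADD replicate 3, Clec4f and C1qa passed as lower (adjusted p 0.0282 and 0.00947), and with no filter Marco passed as higher (0.0126). Within SCADD the macrophage sum was highest in replicate 3, where most interferon-stimulated genes were lowest. Which replicate was lowest depended on the unit. In CPM it was replicate 2 (226, beside 234 in replicate 1), and in TPM replicate 1 (158, beside 162 in replicate 2). Sinusoidal endothelial markers summed to 173 to 180.2 CPM in WT and 103 to 165 in SCADD, without overlap. Most of that sum was Clec4g, at 117, 112 and 115 CPM in WT and 53.8, 65.6 and 104 in SCADD (-0.62, adjusted p = 0.11), which passed with no filter and without SCADD replicate 3. Stab2 had 0.28 (adjusted p = 0.346). Of the 6 markers 1, Lyve1, fell, from 3.80, 6.82 and 8.63 CPM to 2.61, 2.36 and 2.30 (log2 fold change -1.40, adjusted p = 0.0152), a call lost without WT replicate 2 or 3 (adjusted p up to 0.0703). Of 7 monocyte and neutrophil markers 5 were tested and 1, Lcn2, rose from 0.506, 0.656 and 0.863 CPM to 1.84, 2.26 and 2.11 (1.61, adjusted p = 0.0085), with sums of 6.49 to 8.07 CPM in WT and 6.89 to 15.6 in SCADD. The markers of all leukocytes summed to 11.2 to 15.1 and 10.3 to 15.3 CPM. The T and NK cell list, at 1.35 to 3.50 CPM in WT and 1.37 to 2.36 in SCADD, the B cell list, at 0.638 to 4.85 and 1.43 to 1.84, and the dendritic cell list, at 2.24 to 2.97 and 2.88 to 3.67, were low, and none of their 7 tested genes was called. Stellate cell markers summed to 329 to 456 CPM in WT and 259.7 to 508 in SCADD with none of 5 called, and biliary markers to 44.7 to 52.1 and 28.8 to 41.1 CPM, without overlap, with none of 3 tested genes called. The part of cell composition in the interferon-stimulated gene values was not tested.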

How the data were processed

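Poly(A) RNA of 6 mouse livers was measured, 1 library per animal, and groups and replicate numbers come from the labels. The submitters' processing notes name STAR 2.7.6a, RSEM 1.3.3 and GRCm38; no annotation release is named. The authors deposited, per library, STAR read counts for each gene, not normalised, and RSEM tables with expected counts, effective lengths and TPM. Stranded column 4 held 96.8% to 97.3% of stranded reads and was used. Unmapped, multi-mapped, no-feature and ambiguous reads stayed out of totals and tests; no-feature reads were 1.47% to 2.17% of reads. Symbols and coordinates come from GENCODE M21 (55227 of 55487 identifiers matched), promoters from RefSeq.

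Genes were filtered with filterByExpr (minimum count 10), scaled by TMM and tested on all 6 libraries with edgeR 4.0.16 (quasi-likelihood, robust, prior count 0.125) in R 4.3.3, with group as sole term. Adjustment followed Benjamini-Hochberg over 13498 genes, with 0.05 as threshold. SE is the log2 fold change over the square root of F, an approximation. CPM are TMM-scaled. Alternatives used RLE and upper-quartile scaling, no filter, a filter of 1 CPM in 3 libraries, DESeq2 1.42.0, limma-voom (limma 3.58.1), no robust estimation, rounded RSEM expected counts, unstranded counts, a replicate block, and each library left out. The procedure was tested on simulated data, where the share of false calls ran above the nominal rate, so calls near the threshold carry more doubt than their adjusted p states. Counts of replicate pairs differed beyond sampling noise (chi-square per degree of freedom 36.5 to 135).

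The members, marker lists and pathway lists were chosen with earlier results of these data known. Values in every library are given for called genes, the 2 smallest p-values of classes with under 2 calls, the highest TPM of each class, and other genes picked after their values were seen (Ifit3, Mx1, Irgm1, Ifngr1, Ikbke, Irf3, Clec4g). Of the pathway genes, 1 that the rule names is not reported here.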

Additional observations from a re-analysis of the deposited data

How the results depend on the processing

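Usp18 and Ifi47 stayed below the threshold in all 16 alternatives. The counts of called interferon-stimulated genes higher in SCADD were 0 with upper-quartile scaling, 2 with DESeq2 and 0 to 2 with single libraries left out. Those called lower were 5 with no filter and 2 to 7 with single libraries left out. Over all genes the counts were 950 higher and 752 lower with no filter, and 240 to 909 higher and 155 to 681 lower with single libraries left out, the lowest without WT replicate 2 and the highest without SCADD replicate 3. Pathway genes called higher were 4 with no filter and 0 to 4 with single libraries left out. Those called lower were 4 with upper-quartile scaling, 4 with no filter, 3 with DESeq2, 2 with RSEM expected counts, 3 with the replicate block and 0 to 4 with single libraries left out. The fit with no filter tested 24676 genes. The cause of these changes was not tested.

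With the replicate block 1148 genes were called, 668 higher and 480 lower, and the interferon-stimulated genes stayed at 1 higher and 4 lower. Of the uncalled genes given in full, Ifngr1 (adjusted p = 0.043) and Clec4g passed with the block. Same-numbered libraries deviated together only weakly (r = 0.06, 0.04 and 0.11), and differently numbered pairs ran from -0.13 to 0.06. WT replicates 1 and 3 correlated best with their own number. WT replicate 2 correlated best with SCADD replicate 1 (0.0612, beside 0.0372 with SCADD replicate 2). The labels do not say what the number marks, and whether same-numbered libraries share a factor was not tested.

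Signs changed for 14 genes that were not called. With single libraries left out, the log2 fold changes ran from -0.37 to 0.049 for Ifit3b, -0.31 to 0.16 for Oasl2, -0.30 to 0.029 for Rsad2, -0.36 to 0.033 for Cmpk2, -0.42 to 0.031 for Rtp4, -0.33 to 0.055 for Xaf1, -0.21 to 0.013 for Ifi35, -0.15 to 0.24 for Irf7, -0.086 to 0.46 for Gbp3, -0.26 to 0.16 for Gbp6, -0.37 to 0.057 for Gbp7, -0.11 to 0.15 for Psmb8, -0.23 to 0.059 for Psmb9 and -0.035 to 0.19 for Ifnar2. Counting by RSEM gave 0.024 for Oasl2 and 0.0080 for Psmb8, limma-voom gave 0.0020 for Psmb8, and the replicate block gave 0.0087 for Psmb8. Of the TPM levels, 52 of 86 moved by more than 1 SD when rebuilt from STAR counts.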
